A study of Mus musculus with 6 samples.

Results

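Ubiquitin ligases and transcription factors linked to loss of muscle mass, with a caveola coat gene, were followed in primary myoblasts labelled WT or eIF5A-KO. Members were picked by gene symbol, and 10 of the 54532 genes in the count and FPKM tables belonged to them: the ligases Fbxo32, Trim63, Trim54, Trim55 and Fbxo30, the FOXO factors Foxo1, Foxo3 and Foxo4, the transcription factor Klf15 and the caveola coat gene Murc. Of these, 9 were found under their own name, and Murc was found under its current name Cavin4, for which RefSeq lists Murc as a synonym.

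Bulk RNA-seq was performed on 3 WT and 3 eIF5A-KO libraries. The cells were dissociated from hind-limb muscle of 3-week-old mice, grown in medium with serum and FGF (10 ug/ml in the labels) and collected at day 2. In the knockout mice, a tamoxifen-inducible Cre under the Pax7 locus (Pax7 CreERT2/+) removed floxed eIF5A (eIF5A f/f), so that recombination is limited to Pax7-expressing satellite cells and their progeny. The WT animals were littermates, described by the study as Pax7 CreERT2/+ in one place and as Pax7 +/+; eIF5A f/f in another. No sorting step was given for these cultures, and nothing in the labels says whether each library came from its own animal, so the p-values measure the spread between these libraries, which may be technical.

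In skeletal muscle, the F-box protein atrogin-1 (Fbxo32) and the RING-finger protein MuRF1 (Trim63) attach ubiquitin to muscle proteins and mark them for the proteasome. FOXO factors switch both genes on when insulin and IGF signalling through AKT is low, because AKT phosphorylates FOXO proteins and keeps them out of the nucleus. Glucocorticoids act on the same genes through their receptor and through Klf15. FOXO proteins are controlled largely after translation, so mRNA levels are not a measure of FOXO activity.

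The reads counted on genes numbered between 16281216 and 17734551 per library, and mitochondrial transcripts took 2.11% to 3.50% of them except in WT replicate 1, where the share was 5.75%. Eif5a, the targeted gene, was at 1600, 985 and 1237 CPM (counts scaled to a library of 1000000 reads) in WT replicates 1 to 3 and at 1363, 1457 and 1058 CPM in the libraries labelled eIF5A-KO. Its log2 fold change was 0.02 (95% CI -0.51 to 0.55, adjusted p = 0.993, edgeR), so the deletion could not be seen in the mRNA level, and every direction given here is a direction between libraries by their labels. Fibroblast and endothelial markers were abundant beside those of myoblasts, and macrophage and cardiac markers were low. Fibroblast markers summed to between 2405 and 3200 CPM in WT and between 2286 and 2886 CPM in the libraries labelled eIF5A-KO. Endothelial markers summed to between 955 and 2064 CPM in WT and between 1707 and 2590 CPM in the libraries labelled eIF5A-KO, against 1198 to 2083 and 984 to 1812 CPM for myoblast and satellite cell markers. In such bulk cultures, fewer cells of a type and less RNA per cell cannot be told apart.

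The promoters of Trim63 and Murc are shown, since these had the highest and the lowest log2 fold change of the tested members. Whether promoter sequence bears on the levels was not tested. Both promoters were read from RefSeq (GRCm38.p6) from 250 bases before to 50 bases after the start site, on the plus strand. Trim63 is shown first (chr4:134314870-134315169), with the FOXO core TGTTTAC, the glucocorticoid receptor recognition hexamer TGTTCT and the TATA box TATAAA in capitals, and Murc second (chr4:48663264-48663563), with the E-box CANNTG, the sequence bound by MyoD and myogenin, and TATAAA in capitals.

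Trim63: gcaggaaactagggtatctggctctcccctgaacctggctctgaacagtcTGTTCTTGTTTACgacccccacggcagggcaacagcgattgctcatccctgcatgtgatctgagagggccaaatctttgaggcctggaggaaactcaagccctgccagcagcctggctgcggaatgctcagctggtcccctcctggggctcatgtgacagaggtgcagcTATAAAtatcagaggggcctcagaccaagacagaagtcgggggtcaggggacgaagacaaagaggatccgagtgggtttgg

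Murc: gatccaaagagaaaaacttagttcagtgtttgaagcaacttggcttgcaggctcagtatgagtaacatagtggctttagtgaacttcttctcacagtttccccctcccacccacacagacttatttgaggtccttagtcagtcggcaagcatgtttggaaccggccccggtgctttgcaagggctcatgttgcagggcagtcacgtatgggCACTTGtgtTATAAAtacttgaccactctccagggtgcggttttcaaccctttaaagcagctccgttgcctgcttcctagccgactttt

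In the Trim63 window, TGTTCT at -200 to -195 from the start site ran directly into TGTTTAC at -194 to -188, and TATAAA stood at -31 to -26. It also held E-boxes, left in lower case, of which CATGTG began at -149 and again at -50 and CAGCTG began at -72. In the Murc window, an E-box CACTTG at -39 to -34 lay next to TATAAA at -30 to -25, and neither TGTTTAC nor TGTTCT was found on either strand. Over all 32851 RefSeq windows of 300 bases, searched on both strands, TGTTTAC was present in 3.65%, TGTTCT in 19%, CANNTG in 72.3% and TATAAA in 13.6%. These matches are letters in a window and not measured binding.

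Windows were present for 7 members. Trim63 and Murc each held 7 CG pairs, which is also the median of all windows, and Trim54 (chr5:31116362-31116661) held 2. The windows of Foxo1, Foxo3, Fbxo30 and Klf15 held 31, 35, 47 and 47 CG pairs. The last 4 were above the median and Trim54 below it. Of the 7, TGTTTAC was found in Trim63 alone. Klf15 held 3 copies of the E-box CACGTG, at -228, -172 and -3.

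Per gene length, the FOXO factors and Fbxo30 were the most abundant members and the muscle-restricted ligases the least. In FPKM (fragments per 1000 bases of gene and 1000000 reads, from the authors), the mean over all 6 libraries was 10.05 for Foxo3, 9.37 for Foxo4, 7.29 for Fbxo30 and 6.49 for Foxo1. Murc followed at 2.67, Klf15 at 2.46, Trim55 at 1.24 and Fbxo32 at 1.01. Trim63 at 0.527 and Trim54 at 0.396 were lowest. The ranges of all 9 neighbouring pairs in this order overlapped over the 6 libraries, although Foxo4 was above Fbxo30, and Fbxo32 above Trim63, in 6 of 6 libraries. In counts, Trim54 had between 5 and 24 reads per library and Trim63 between 6 and 45, so that these levels rest on few reads.

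**Figure D1:**
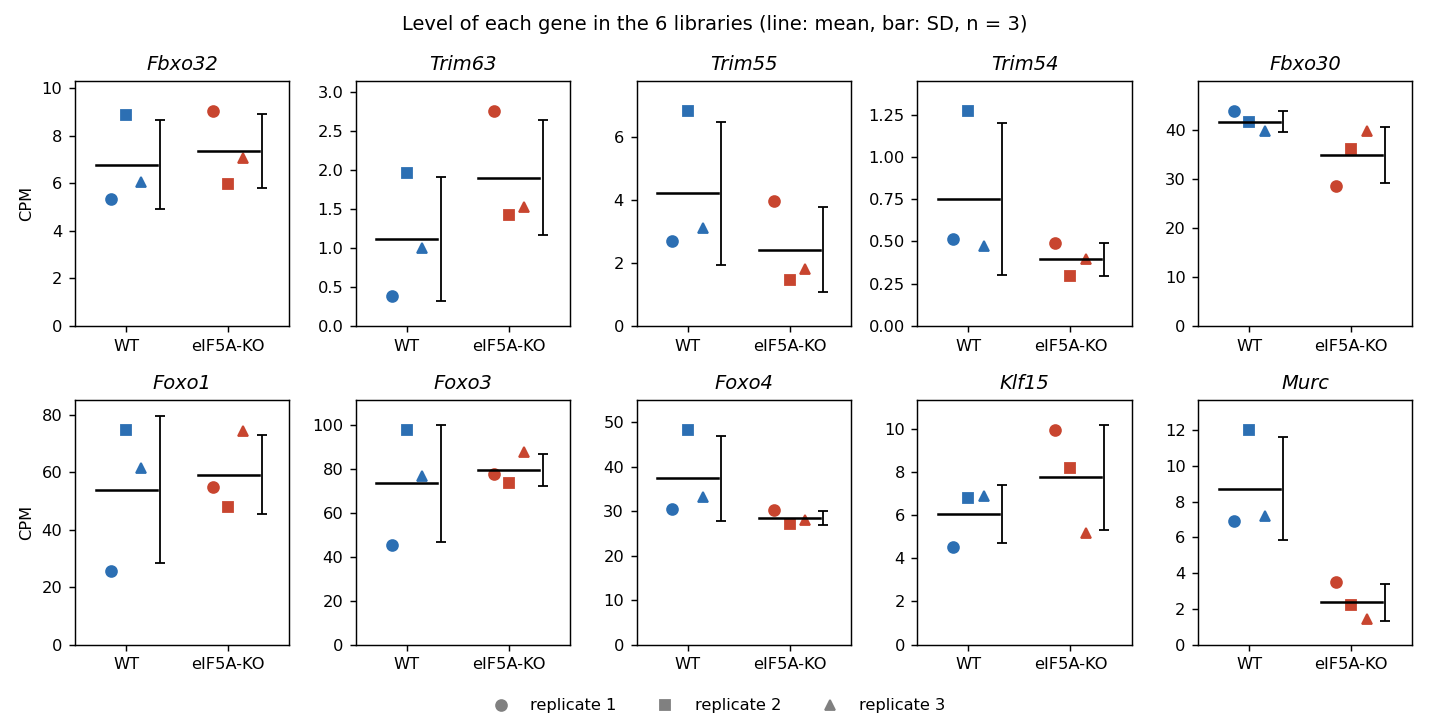
Level of each of the 10 genes in CPM (vertical axis, from 0, its own scale per gene) in WT (blue) and eIF5A-KO (red) libraries, with the symbol giving the replicate, the line the mean and the bar the SD of 3 libraries. The groups do not overlap for Murc, at 6.91 to 12.0 CPM in WT and 1.42 to 3.48 CPM in eIF5A-KO, or for Foxo4, and they overlap for the other 8 genes.

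Of the 10 members, 9 had enough reads to be tested, and Trim54 did not. No tested member had an adjusted p under 0.05 in edgeR's quasi-likelihood test, where 3 of 14679 tested genes (0.0204%) did. At an unadjusted p under 0.05, 1 of 9 members passed, Murc, against 6.76% of all tested genes. Every library of one group was above every library of the other for 2 of the 9, Murc and Foxo4, against 12.5% of all tested genes, and both were lower in the libraries labelled eIF5A-KO, which held for 6.83%. The log2 fold change was below 0 for 4 of 9 members and for 51.7% of all tested genes. Its median was 0.11 over the 9 members and -0.01 over all tested genes. Without WT replicate 1, 7 of 9 members were below 0 and 3 had an unadjusted p under 0.05, as did 10.2% of all genes tested there. DESeq2 gave 1 member with an adjusted p under 0.05, Murc, where it called 90 of the 14679 genes, and limma-voom gave 0 members and called no gene at all.

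**Figure D2:**
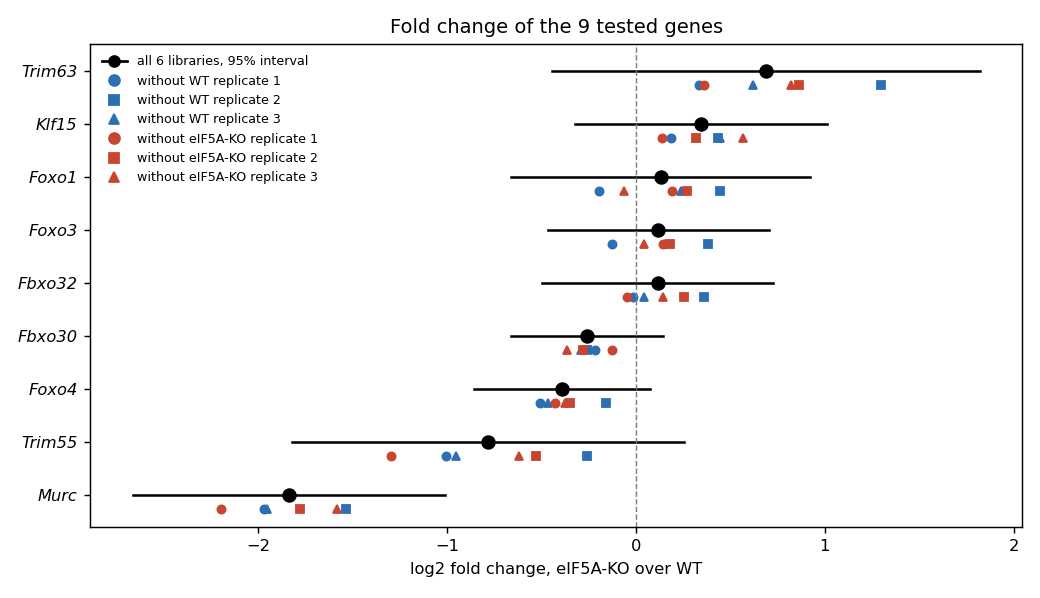
Log2 fold change of the 9 tested genes, eIF5A-KO over WT (horizontal axis), with the 95% interval as a line and, under each, the value with 1 library left out as a coloured symbol. The interval excludes 0 for Murc alone (-2.66 to -1.01), and the values of Foxo1, Foxo3 and Fbxo32 fall on both sides of 0 when single libraries are left out.

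Murc encodes cavin-4, a muscle-restricted coat protein of caveolae. It was the member with the largest difference. Murc (ENSMUSG00000028348, chr4:48663514-48673502, plus strand) had transcripts of at most 2 exons and was covered by 107, 227 and 122 reads in WT and by 57, 37 and 25 reads in the libraries labelled eIF5A-KO. Its level was 6.91, 12.0 and 7.20 CPM in WT replicates 1 to 3 and 3.48, 2.19 and 1.42 CPM in the libraries labelled eIF5A-KO. Every WT library was thus above every library labelled eIF5A-KO, with means of 8.71 ± 2.87 and 2.36 ± 1.04 CPM (SD, n = 3). The log2 fold change was -1.84 ± 0.37 (SE), a ratio of 0.280, with an unadjusted p of 0.000658 and an adjusted p of 0.321 in edgeR. It was number 29 of all tested genes when ordered by p. With no filter on low counts the adjusted p of Murc was 3.36e-06 in edgeR, and with DESeq2 it was 0.000805.

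The order of the libraries by Murc level was WT replicates 2, 3 and 1, followed by eIF5A-KO replicates 1, 2 and 3. Myog, which encodes the differentiation factor myogenin, had the same order. Its level was 14.4, 76.2 and 32.2 CPM in WT and 8.92, 5.08 and 2.09 CPM in the libraries labelled eIF5A-KO, with a log2 fold change of -2.91 ± 0.63 (SE) and an adjusted p of 0.362 in edgeR. Mymk, the myoblast fusion gene myomaker, had this order too (1.48, 7.79 and 4.48 CPM against 1.41, 0.355 and 0.113 CPM) and is named here because of its values. Of the other tested genes, 54 (0.368%) shared exactly this order of libraries. Of the other muscle genes looked at, Myh1 had this order, and Ttn, Tnnt2 and Trim55 did not. Among the listed terminal differentiation genes, Myog and Mymk were the only ones with this order. The levels of Myog and Mymk thus ordered the libraries as Murc did, and the part of differentiation in the difference was not tested.

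**Figure D3:**
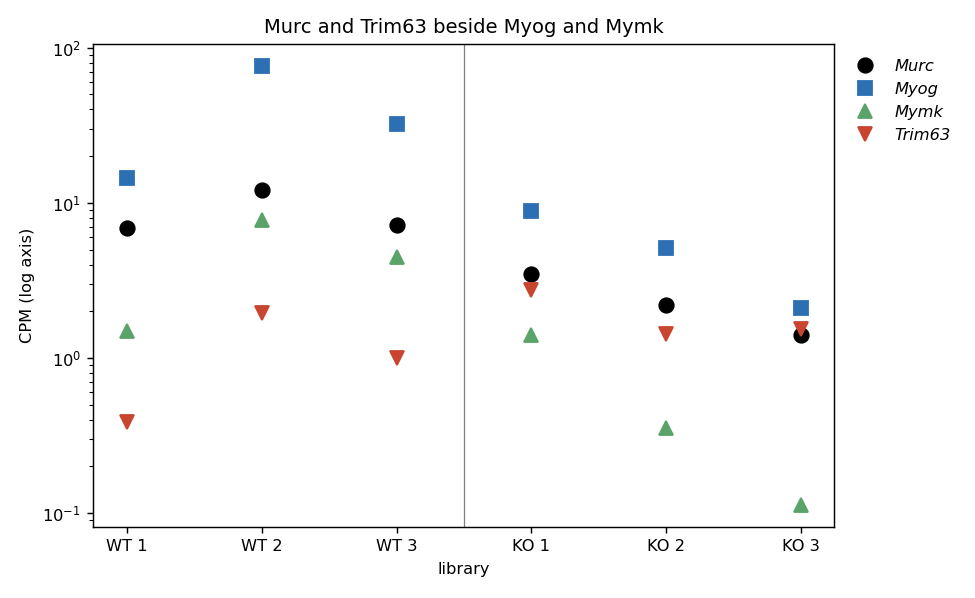
Levels of Murc, Trim63, Myog and Mymk in CPM (log axis) in each of the 6 libraries, 3 WT to the left of the line and 3 eIF5A-KO to the right. Murc, Myog and Mymk order the 6 libraries alike, whereas Trim63 is lowest in WT replicate 1 at 0.387 CPM and highest in eIF5A-KO replicate 1 at 2.75 CPM.

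The other genes of the caveola coat had values nearer to 0. All 8 listed genes were tested, 6 were higher and 2 lower, and 0 had an unadjusted p under 0.05 in edgeR. The list median was a log2 fold change of 0.12. The summed level was 1715 to 1830 CPM in WT and 1926 to 1989 CPM in the libraries labelled eIF5A-KO, without overlap. Taken alone, each of the 8 genes overlapped between the groups. Cavin1, the largest portion of the sum, was at 790, 649 and 650 CPM in WT and 818, 792 and 597 CPM in the libraries labelled eIF5A-KO. Cavin2 had the highest value (0.39, adjusted p = 0.877), Cavin3 the smallest p (0.31, adjusted p = 0.863) and Cav3, the muscle caveolin, the lowest value (-0.39, adjusted p = 0.939).

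The MuRF ligases, which bind the sarcomere, did not point in one direction. Trim63 (MuRF1; ENSMUSG00000028834, chr4:134315120-134329629, plus strand) was at 0.387, 1.96 and 1.00 CPM in WT and at 2.75, 1.42 and 1.53 CPM in the libraries labelled eIF5A-KO. Trim55 (MuRF2; ENSMUSG00000060913, chr3:19644474-19692421, plus strand) was at 2.71, 6.83 and 3.13 CPM in WT and at 3.97, 1.48 and 1.81 CPM in the libraries labelled eIF5A-KO. Trim54 (MuRF3; ENSMUSG00000062077, chr5:31116712-31137630, plus strand) was at 0.516, 1.27 and 0.472 CPM and at 0.489, 0.296 and 0.396 CPM. The groups overlapped for each of them, with WT replicate 2 the highest library for Trim55 and Trim54 and eIF5A-KO replicate 1 the highest for Trim63.

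The log2 fold change of Trim63 was 0.69 ± 0.50 (SE, 95% CI -0.44 to 1.82, adjusted p = 0.888, edgeR), and that of Trim55 was -0.78 ± 0.46 (SE, 95% CI -1.82 to 0.26, adjusted p = 0.847). For Trim54, which entered the test only with no filter on low counts, it was -0.77 (adjusted p = 0.814). None passed the threshold, and the intervals allow changes in either direction. Without WT replicate 2, the value of Trim63 was 1.30, and that of Trim55 was -0.26. Without WT replicate 1, the value of Trim63 was 0.34. Without eIF5A-KO replicate 1, it was 0.36 and that of Trim55 was -1.30.

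Within each library, the make-up of the MuRF family was compared as the share of each gene in the summed FPKM of all 3. Trim63 made up 8.99%, 16.6% and 19.0% in WT replicates 1 to 3 and 34.5%, 39.6% and 36.0% in the libraries labelled eIF5A-KO. Trim55 made up 67.3%, 62.0% and 63.3% in WT and 53.3%, 44.1% and 45.6% in the libraries labelled eIF5A-KO. The groups overlapped in neither share, and the mean share of Trim63 was 14.9 ± 5.23% in WT and 36.7 ± 2.61% in the libraries labelled eIF5A-KO (SD, n = 3). That of Trim54 was 20.9 ± 3.04% and 15.6 ± 3.21%. The sum of the family in FPKM was chosen for comparison after the levels had been seen, so the shares are given as a description with no test.

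In reads, Trim63 accounted for 6 of 56, 37 of 190 and 17 of 78 MuRF reads in WT. These are 10.7% (exact Clopper-Pearson 95% interval 4.03 to 21.9%), 19.5% (14.1 to 25.8%) and 21.8% (13.2 to 32.6%). In the libraries labelled eIF5A-KO it accounted for 45 of 118, 24 of 54 and 27 of 66 reads, or 38.1% (29.4 to 47.5%), 44.4% (30.9 to 58.6%) and 40.9% (29.0 to 53.7%). The intervals cover counting error only, and that of WT replicate 3 reached into those of the libraries labelled eIF5A-KO. A share within a family shows an unequal difference between its genes and not which of them differed.

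**Figure D4:**
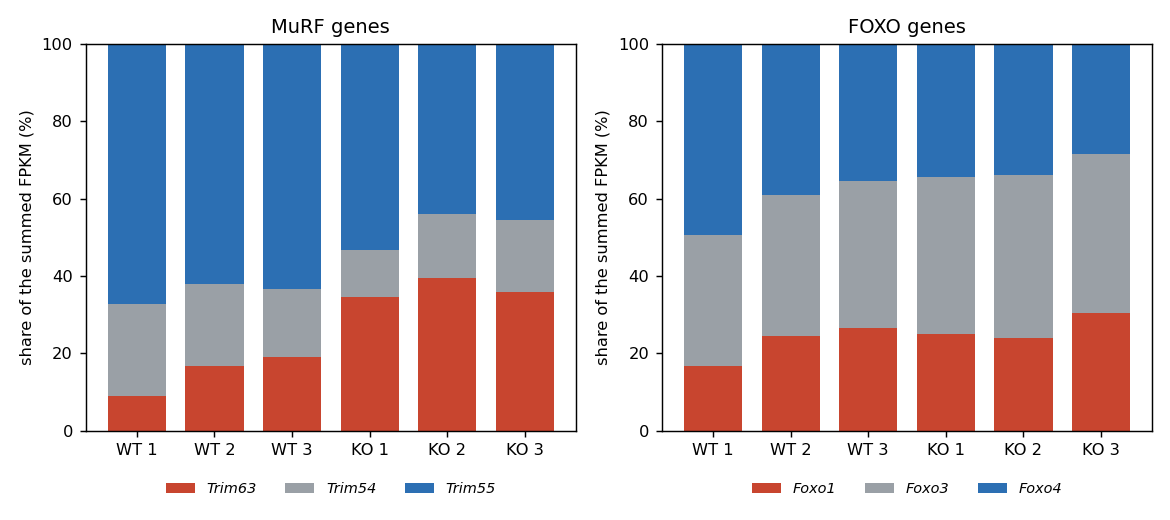
Share of each gene in the summed FPKM of its family (vertical axis, percent) in each of the 6 libraries, for the MuRF genes (left) and the FOXO genes (right). The share of Trim63 is 8.99 to 19.0% in WT and 34.5 to 39.6% in eIF5A-KO, and that of Foxo3 is 33.9 to 38.0% in WT and 40.6 to 42.1% in eIF5A-KO.

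Neither F-box ligase differed beyond the spread of the libraries. Fbxo32 (atrogin-1; ENSMUSG00000022358, chr15:58175879-58214932, minus strand) was at 5.36, 8.90 and 6.08 CPM in WT and at 9.04, 5.97 and 7.08 CPM in the libraries labelled eIF5A-KO. The groups overlapped over nearly their whole range, and the log2 fold change was 0.11 ± 0.27 (SE, 95% CI -0.50 to 0.73, adjusted p = 0.975, edgeR). It turned to -0.02 without WT replicate 1 and to -0.047 without eIF5A-KO replicate 1, and was 0.36 without WT replicate 2. Fbxo30 (MUSA1, a ligase held down by BMP signalling in muscle; ENSMUSG00000047648, chr10:11281330-11298052, plus strand) was at 43.8, 41.5 and 39.6 CPM in WT and at 28.5, 36.1 and 39.7 CPM in the libraries labelled eIF5A-KO. Only eIF5A-KO replicate 3 reached the WT range, and the log2 fold change was -0.26 ± 0.18 (SE, 95% CI -0.66 to 0.14, adjusted p = 0.879). Without eIF5A-KO replicate 1 the value of Fbxo30 was -0.13. Part of the Fbxo32 transcript matches stretches of the H2-T23 and Hp1bp3 transcripts at 90% identity or more over at least 200 bases. Where the match is close enough, reads could be counted on either gene.

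Of the FOXO factors, Foxo4 was the one whose groups did not overlap. Foxo4 (ENSMUSG00000042903, chrX:101254528-101260873, plus strand) was at 30.5, 48.4 and 33.2 CPM in WT and at 30.3, 27.1 and 28.0 CPM in the libraries labelled eIF5A-KO. The gap between WT replicate 1 and eIF5A-KO replicate 1 was small, and WT replicate 2 stood above the other 5 libraries. The log2 fold change was -0.39 ± 0.21 (SE, 95% CI -0.86 to 0.07, adjusted p = 0.811, edgeR). Without WT replicate 2 it was -0.16, and without WT replicate 1 it was -0.51.

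Foxo1, which drives atrophy genes in fasting muscle, and Foxo3 had wide WT ranges that enclosed the libraries labelled eIF5A-KO. Foxo1 (ENSMUSG00000044167, chr3:52268336-52353221, plus strand) was at 25.5, 74.9 and 61.6 CPM in WT and at 55.1, 48.1 and 74.6 CPM in the libraries labelled eIF5A-KO. Foxo3 (ENSMUSG00000048756, chr10:42181841-42276755, minus strand), which also induces autophagy genes in muscle, was at 45.4, 98.1 and 77.0 CPM in WT and at 78.0, 73.6 and 87.9 CPM in the libraries labelled eIF5A-KO. For both genes WT replicate 1 was the lowest library, WT replicate 2 the highest, and the 3 libraries labelled eIF5A-KO lay between them. WT replicate 1 is also the library with the highest mitochondrial share, and the part of this in the levels was not tested.

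The log2 fold change was 0.13 ± 0.35 for Foxo1 (SE, 95% CI -0.66 to 0.92, adjusted p = 0.976, edgeR) and 0.12 ± 0.26 for Foxo3 (SE, 95% CI -0.47 to 0.70, adjusted p = 0.973). Without WT replicate 1 these values were -0.20 and -0.13, and without WT replicate 2 they were 0.44 and 0.38. The direction of neither gene was therefore settled by these libraries. Of the summed FPKM of the 3 FOXO genes, Foxo4 made up 41.4 ± 7.25% in WT and 32.2 ± 3.24% in the libraries labelled eIF5A-KO (SD, n = 3). Foxo3 made up 36.1 ± 2.07% and 41.3 ± 0.779%, and Foxo1 22.5 ± 5.20% and 26.5 ± 3.43%.

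Klf15, a target of the glucocorticoid receptor that acts with it on atrophy genes, was at 4.52, 6.78 and 6.90 CPM in WT and at 9.96, 8.16 and 5.15 CPM in the libraries labelled eIF5A-KO. Here eIF5A-KO replicates 1 and 2 were above all WT libraries and eIF5A-KO replicate 3 was within their range. Klf15 (ENSMUSG00000030087, chr6:90462576-90475238, plus strand) had a log2 fold change of 0.35 ± 0.30 (SE, 95% CI -0.32 to 1.01, adjusted p = 0.913, edgeR). It was 0.14 without eIF5A-KO replicate 1 and 0.57 without eIF5A-KO replicate 3. The receptor and its other listed targets were 4 higher and 4 lower of 8 tested, with a median of 0.02. Tsc22d3 (GILZ, a classic glucocorticoid-induced gene) had the highest value and the smallest p (0.36, adjusted p = 0.817), and Zbtb16 the lowest value (-0.39).

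The genes around the members in the pathway were read from 8 lists of 102 genes, of which 99 were tested. None had an adjusted p under 0.05 in edgeR. At an unadjusted p under 0.05, 10 were lower and 0 higher in the libraries labelled eIF5A-KO, against 4.02% and 2.74% of all tested genes. Of the 10, 8 were in the lists of sarcomeric partners and of terminal differentiation. Upstream, the insulin, IGF and AKT genes were 8 higher and 9 lower of 17, with a median of -0.004. The AKT-activating kinase gene Pdpk1 had the smallest p (-0.47, adjusted p = 0.809), the receptor substrate gene Irs1 the lowest value (-0.50) and the kinase gene Sgk1 the highest (0.30).

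Downstream, the 19 other FOXO targets were 10 higher and 9 lower, with a median of 0.02. The cell cycle inhibitor gene Ccng2 had the lowest value and the smallest p (-0.49, adjusted p = 0.645), and Irs2 the highest value (0.41). FOXO cofactors and modifiers were 5 higher and 7 lower of 12. Skp2, which encodes an F-box protein that targets FOXO1, had the smallest p (-0.60, adjusted p = 0.50), and the coactivator gene Ppargc1a had the highest value (0.62, adjusted p = 0.799). The 12 other ligase genes were 4 higher and 8 lower, with Asb2 lowest (-0.66, adjusted p = 0.876) and Fbxo31 highest (0.26). The FOXO axis above and below the members thus had medians between -0.07 and 0.02 on the log2 scale.

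The lists with contractile genes had the lowest medians. Substrates and sarcomeric partners of the ligases were 3 higher and 9 lower of 12 tested, with a median of -0.65, and 3 were lower at an unadjusted p under 0.05. Titin (Ttn), which anchors MuRF proteins in the sarcomere, had the lowest value (-1.57, adjusted p = 0.563, edgeR). WT replicate 2 stood highest for Ttn, with 3.74, 23.9 and 9.38 CPM in WT replicates 1 to 3. The libraries labelled eIF5A-KO were at 5.07, 3.67 and 3.57 CPM. The list median was not recomputed without WT replicate 2. The fast myosin gene Myh1 had the smallest p (-1.17, adjusted p = 0.503, edgeR). Sqstm1, an autophagy receptor gene and not a contractile one, had the highest value (0.32). The summed level of this list overlapped between the groups, at 2235 to 2837 CPM in WT and 2449 to 3294 CPM in the libraries labelled eIF5A-KO. Its largest portion was Sqstm1, at 1312, 1294 and 1443 CPM in WT and 1918, 1578 and 1547 CPM in the libraries labelled eIF5A-KO, so the sum says little of the contractile genes. Terminal differentiation genes were 1 higher and 11 lower of 12 tested, with a median of -0.56, and 5 were lower at an unadjusted p under 0.05. The single gene above 0 was Mef2c (0.17), and Myog was lowest. The summed level of this list was 365, 670 and 397 CPM in WT and 259, 339 and 403 CPM in the libraries labelled eIF5A-KO, so that the sums overlapped and WT replicate 2 stood above the other 5 libraries.

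Beside this, 8 of 10 myoblast and satellite cell markers were lower (median -0.45), 6 of 6 endothelial markers and 7 of 7 mural markers were higher (medians 0.45 and 0.37), and 4 of 6 macrophage and 1 of 7 fibroblast markers were higher (medians 0.31 and -0.14). The sums of myoblast and of endothelial markers overlapped between the groups. WT replicate 2 had the highest sum of myoblast markers, at 2083 CPM. WT replicate 1 had the lowest sum of endothelial markers, at 955 CPM, against 1707 CPM or more in every other library. The marker counts and medians were not recomputed with single libraries left out. Mural markers summed to between 329 and 577 CPM in WT and between 659 and 721 CPM in the libraries labelled eIF5A-KO. The smooth muscle myosin gene Myh11, a mural marker, was among the 3 genes past the adjusted threshold (1.51, adjusted p = 0.0486, edgeR), a call that was lost in at least 11 of 17 alternatives, where no gene passed, and the groups did not overlap for the mural markers Pdgfrb and Cspg4 either. The part of the cell types in the contractile and member levels was not tested. Of the cardiac markers, Myl7 had no read in any library, and Myh6, Nppa and Tnni3 had too few to be tested. The one that was tested, Tnnt2, a troponin gene that immature skeletal muscle also uses, was at 10.6, 22.4 and 18.1 CPM in WT and at 6.66, 2.37 and 3.11 CPM in the libraries labelled eIF5A-KO. Its groups did not overlap, with a log2 fold change of -2.05 and an adjusted p of 0.321 in edgeR.

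**Figure D5:**
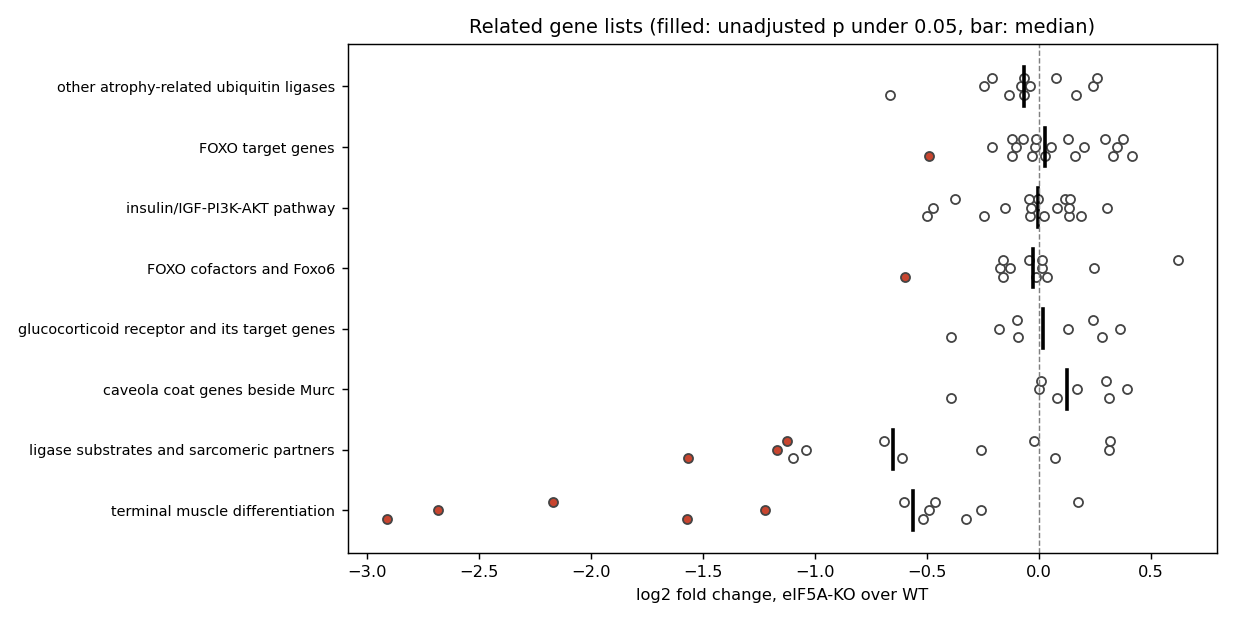
Log2 fold change, eIF5A-KO over WT (horizontal axis), of every tested gene in the 8 related lists, with a filled symbol for an unadjusted p under 0.05 and a bar at the list median. The medians are -0.65 for ligase substrates and sarcomeric partners and -0.56 for terminal differentiation, and lie between -0.07 and 0.12 for the other 6 lists.

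The genes whose pattern over the 6 libraries was most like that of Fbxo32 and of Trim63 were found by the root-mean-square difference of log2 CPM, each centred on its own mean, among tested genes with a mean of at least 5 CPM. For Fbxo32 these were Cplx2, Tbc1d24, Apba1, Stc2 and Cdk18, with differences between 0.06 and 0.10, where Fbxo32 itself had a spread of 0.28 about its mean. For Trim63 they included Egr3, Heyl, Atp1b2 and Klhl30, with differences between 0.11 and 0.27, against a spread of 0.79 for Trim63. The genes were the nearest of 11035 and 11036 compared over 6 libraries. No gene was among the nearest of both.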

How the data were processed

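RNA-seq of primary myoblasts was read from the authors' tables. The deposited counts are whole reads per gene without normalization, and the FPKM were computed by the authors and scaled between libraries. Per the labels and methods, total RNA was taken with TRIzol, libraries were made with NEBNext Ultra and reads were mapped to mm10 with HISAT. How reads with several matches were counted is not given in the sources used here. Reads from overlapping genes of opposite strand could not be told apart, and Fbxo32, Trim54 and Foxo1 have such genes.

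Counts from 16281216 to 17734551 per library were tested with edgeR 4.0.16 in R 4.3.3, using the default filter, TMM factors, the quasi-likelihood F test and Benjamini-Hochberg adjustment over 14679 genes, with a threshold of 0.05 and no covariate. CPM use TMM factors, and the prior count was 2. The alternatives used DESeq2 1.42.0, limma 3.58.1, other scalings and filters, a replicate block and each library left out. The steps were tested on simulated data. Intervals for shares were computed with SciPy 1.17.1, and copies were searched with blastn 2.17.0 at 90% identity over 200 bases.

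The members and lists were chosen with earlier results of these data known, and TATAAA was added to the motifs later than the others. Named genes are the members, of each list the smallest p, highest and lowest log2 fold change, the 5 nearest patterns for Fbxo32 and Trim63, Eif5a and Myog. Mymk, the cell type markers and the genes given with copies fall outside this rule, and 1 gene that meets it is not reported here.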

Additional observations from a re-analysis of the deposited data

How the results depend on the processing

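Over 17 alternatives, Murc had a log2 fold change between -2.20 and -1.27 and an unadjusted p under 0.05 in each, with an adjusted p from 3.36e-06 to 0.735. The number of members with an adjusted p under 0.05 was 1 with no filter and 1 with DESeq2, where 249 of 26956 and 90 of 14679 genes passed, and with no filter 2 members had an unadjusted p under 0.05, as did 6.32% of all genes. Leaving out each library gave 1 to 3 members with an unadjusted p under 0.05 and 4 to 7 lower members, with 3 and 7 without WT replicate 1, and 2 members at that p without WT replicate 2 or eIF5A-KO replicate 1. The share of all tested genes at that p was then 10.2%, 8.82% and 3.88%, in this order of libraries, against 6.76%. Fold changes then ranged from -0.13 to 0.38 for Foxo3, -0.20 to 0.44 for Foxo1 and -0.047 to 0.36 for Fbxo32, so that these 3 changed sign: Foxo3 and Foxo1 without WT replicate 1, Foxo1 without eIF5A-KO replicate 3 (-0.07), and Fbxo32 without WT replicate 1 (-0.02) or eIF5A-KO replicate 1. The cause was not tested. Murc, Trim55, Foxo4, Fbxo30, Klf15 and Trim63 kept their direction wherever they were tested, and Trim63 could not be tested with 10 counts in every library.

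Same-numbered libraries correlated at 0.084, -0.16 and 0.105 in their deviations from the group means. Differently numbered libraries correlated between -0.267 and 0.269. So few libraries cannot settle whether the replicate numbers pair them. With the replicate block, Murc was at -1.86 (adjusted p = 0.0505), and 24 genes against 3 passed. No gene passed in 11 alternatives. Levels under 2 CPM in a library, which Trim54, Trim63, Trim55 and Murc reached, rest on few reads.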
